A study of Homo sapiens with 2 samples.

Results

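The MYC and PVT1 window is the stretch of chromosome 8 from 128.00 to 129.60 Mb (hg19) that holds the proto-oncogene MYC and, downstream of it, the long noncoding RNA gene PVT1. Its members are the listed KMT2D peaks whose highest point lies between these borders: 13 of 24824 peaks in all, 13 of 24772 on chromosomes 1 to 22 and X, and 13 of 945 on chromosome 8. The peaks come from chromatin immunoprecipitation with sequencing (ChIP-seq) for KMT2D in OCI-LY7, an established human lymphoma line of the GCB-DLBCL class (diffuse large B-cell lymphoma resembling germinal centre cells), with the genotype label wt. The study has 1 KMT2D library, made with an antibody against the protein's N-terminus, and 1 input library made without antibody, both from formaldehyde-fixed cells. Values of the input library were not analysed here, and expression was not measured, so the cell type was not checked against markers. With 1 ChIP library there was no replicate and therefore no test and no p-value, so all values below describe this list.

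KMT2D, also called MLL4, is an enzyme that methylates histone H3 on lysine 4, above all at enhancers, and its gene is often inactivated in lymphomas of germinal centre origin. MYC encodes a transcription factor that drives growth and division. In the germinal centre it is switched on in a small share of light-zone B cells, and it is deregulated in many aggressive B-cell lymphomas. The gene lies in a region poor in coding genes, and distal enhancers on both sides are known to act on it in different tissues. PVT1 is often gained together with MYC in cancer, and its promoter has been reported to compete with that of MYC for enhancers in breast cancer cells. It is also the host of several miRNAs.

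A GRCh38 gene table from RefSeq was used for names and gene order only, because its positions are on another build. In it, no gene lies between MYC and PVT1. The nearest coding gene before MYC is POU5F1B, a retrogene copy of the pluripotency factor gene POU5F1, and the next one is LRATD2. The nearest coding gene after MYC is GSDMC, of the gasdermin family. The noncoding genes CASC11, CASC8, CCAT1 and PCAT1 come before MYC. Of the PVT1-region miRNA genes, MIR1204, MIR1205, MIR1206 and MIR1207 lie inside PVT1, so 4 are hosted there, and MIR1208 follows its end. Borders of MYC (128.748 to 128.754 Mb) and PVT1 (128.806 to 129.114 Mb) on hg19 are known here to the nearest kb. Distances below are measured from them and are uncertain by up to 1 kb. No peak was placed in an exon, intron or promoter, since an hg19 annotation was not used here.

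KMT2D peaks in the window fell into 3 groups and 4 lone peaks. The groups were 3 peaks some 157 to 176 kb before MYC, 4 peaks at MYC and 2 peaks at the start of PVT1. The 4 MYC peaks had their highest points within 3 kb of the MYC start border. The lone peaks were spread from the far end of PVT1 onwards. The tallest were the outer members of the upstream group, with heights of 56 and 49, followed by the peak at the MYC start, with a height of 42. Height is a whole number per peak in the authors' units, and whether it was normalized is not stated. The other 10 peaks had heights of 20 to 34. Each peak also has a deposited significance value, which looks like log10 of a p-value, and a deposited score with no stated scale.

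**Figure D1:**
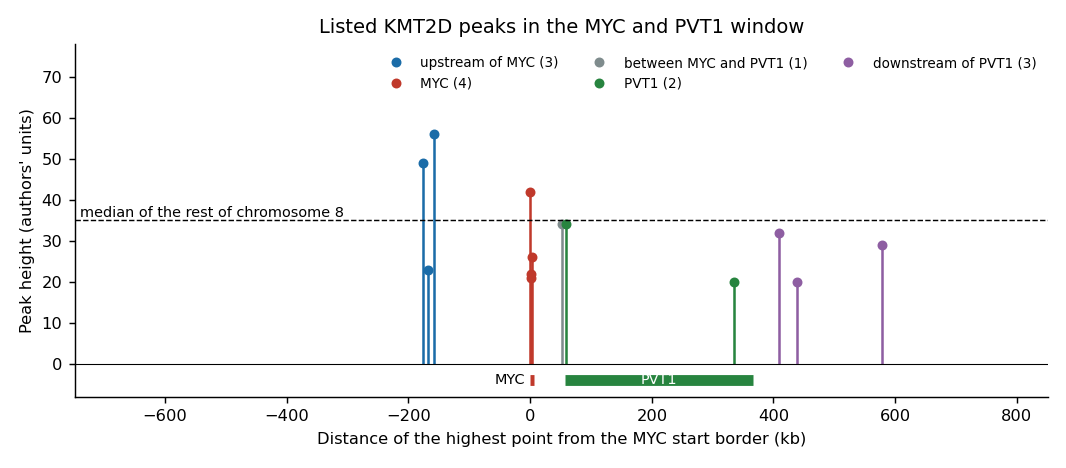
Height of each of the 13 listed KMT2D peaks (authors' units) against the distance of its highest point from the MYC start border (kb), coloured by stretch, with MYC and PVT1 drawn as bars below the axis and the median height of the rest of chromosome 8, which is 35, as a dashed line. The 3 peaks above that line lie upstream of MYC and at the MYC start, and no peak is listed in the first 571 kb of the window.

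The 13 peaks stood far from any other listed peak. They spanned 755 kb, from 128571350 to 129326212. Before them 1001 kb held no listed peak, and after them 1625 kb. On chromosome 8 the gap after the window's last peak was exceeded by 16 of 944 gaps and the gap before its first peak by 37, against a median gap of 19.4 kb. In the list as a whole 1.16% of gaps were longer than the first of these and 2.19% longer than the second. Gaps of at least the shorter length bounded 522 groups of peaks on both sides, 37 of them on chromosome 8, with a median of 11 peaks. Of these, 21 had 10 or more peaks within 1 Mb, as this one does, a size chosen after the values were seen. Sequencing depth is not known, and a stretch with no listed peak is therefore not shown to lack KMT2D.

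The stretch upstream of MYC, 748 kb long, held 3 peaks, all inside 19.9 kb. The first peak, at 128571350 to 128571910, was 560 bp wide with a height of 49, a score of 33.4 and a significance value of -45.5, which was the strongest of the 13. The third, at 128590022 to 128591256, was the widest and the tallest of the window, with 1234 bp, a height of 56 and a significance value of -42.3. Their highest points lay 176 kb and 157 kb before the MYC border. Between them stood a low peak at 128579292 to 128579588, with a height of 23 and a width of 296 bp. The outer pair was thus more than 2 times as tall as the peak between. Within chromosome 8 these were upper-range but not extreme peaks: 74.4% of its peaks were lower than the tallest and 65.8% were lower than the first. The peak-covered bases of the stretch came to 2090 bp, or 0.279% of it.

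MYC itself carried 4 peaks in 2.64 kb, the most closely packed group of the window. The peak at the MYC start, at 128748191 to 128748843, was 652 bp wide with a height of 42 and a significance value of -33.97. Its highest point lay under 1 kb from the start border, on the inner side of the border as rounded. With borders known to the nearest kb, its side of the MYC start is not resolved. It was taller than 57.6% of chromosome 8 peaks, so it ranked near the middle of them. The next 3 were low and narrow. At 128749296 to 128749404 a peak of 108 bp had a height of 21. At 128750149 to 128750318 a peak of 169 bp had a height of 22, and at 128750603 to 128750827 a peak of 224 bp had a height of 26. Each of these 3 had at most 62% of the height of the first peak, and their significance values ran from -16.3 to -21.0, where the list's bound is -15. Gaps between the 4 peaks were 453, 745 and 285 bp, and together the peaks covered 1153 bp, or 43.7% of the span of the group. The number depends on how finely peaks were split: merging peaks under 500 bp apart left 2 peaks over MYC, of 1213 and 678 bp.

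Runs as dense as the one over MYC were uncommon in the list, though not particular to it. A run was taken as 4 or more peaks whose highest points lie within 2500 bp, a limit chosen after the 4 MYC peaks had been seen. The window had 4 of 13 peaks in such a run, against 40 of 932 (4.29%) in the rest of chromosome 8 and 1.86% over chromosomes 1 to 22 and X. The list held 103 such runs, 9 of them on chromosome 8. Their tallest peaks had a median height of 43 (interquartile range 34 to 55.5), against 42 in the run over MYC, and 48 of the 103 had a lower tallest peak. The run over MYC was therefore of ordinary height for such runs. After the merging of peaks under 500 bp apart, an alternative to this count added after its value was seen, 0 members were in a run and 0 runs were left in the list. Merged peaks lie at least 500 bp apart, which leaves little room for 4 within 2500 bp. These counts of 0 therefore say little about the run over MYC.

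**Figure D2:**
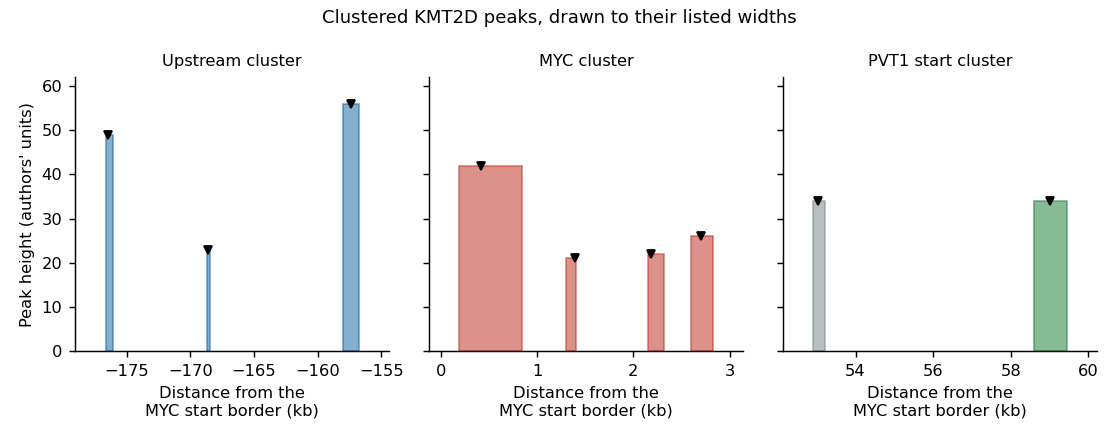
The 3 clusters of the window, with each listed KMT2D peak drawn as a bar from its start to its end (distance from the MYC start border, in kb) and as high as its height (authors' units); triangles mark the highest points. The MYC cluster has 1 peak of height 42 followed by 3 of 21 to 26, while both peaks of the PVT1 start cluster have a height of 34; the panels have different distance scales.

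Between MYC and PVT1, a stretch of 52 kb, there was 1 peak, close to PVT1. It lay at 128800915 to 128801208, 4.97 kb before the PVT1 border, with a height of 34, a width of 293 bp and a significance value of -28.01. From the last MYC peak to this one, 50.1 kb held no listed peak.

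PVT1, at 308 kb the longer of both genes, held 2 peaks, near its opposite ends. The peak at its start, at 128806604 to 128807448, was 844 bp wide with a height of 34 and a significance value of -26.2. It stood 5.40 kb from the peak before it, and both had the same height, although the one at the start was 2.88 times as wide. The second, at 129083274 to 129083405, lay 30.7 kb before the end border and was among the lowest of the window, with a height of 20, a width of 131 bp and a significance value of -17.2. Only 3.17% of chromosome 8 peaks were lower. Between both peaks, 276 kb held no listed peak, the longest such stretch between peaks of the window. Of 944 gaps between peaks on chromosome 8, 105 were longer.

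PVT1 had 6.49 peaks per Mb (exact Poisson 95% interval 0.786 to 23.5), and the rest of the window had 8.51 peaks per Mb. Their ratio was 0.763 (exact conditional 95% interval 0.0821 to 3.49), so a difference was not detectable with 2 and 11 peaks. When the PVT1 stretch was widened by 10 kb on each side, the ratio was 1.16, because the peak just before its border was then included.

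Downstream of PVT1, 486 kb held 3 lone peaks. The nearest, at 129157136 to 129157578, lay 43.3 kb past the PVT1 end with a height of 32 and a width of 442 bp. The next, at 129186523 to 129186662, had a height of 20 and a width of 139 bp. The last peak of the window, at 129325890 to 129326212, lay 212 kb past the PVT1 end with a height of 29 and a width of 322 bp. None of these reached the height of 35 that is the median of the rest of chromosome 8. Upstream of MYC there were 4.01 peaks per Mb (0.827 to 11.7) and downstream of PVT1 6.17 (1.27 to 18.04). The ratio was 0.650 (0.0870 to 4.85), and at 3 peaks each no difference in density could be detected. In bases covered the order turned round: 0.279% upstream and 0.186% downstream, a ratio of 1.504, since the upstream peaks were wider.

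In peaks per Mb, no difference of the window from the rest of the list was detectable. They amounted to 8.12 peaks per Mb (4.33 to 13.9), against 6.45 (6.04 to 6.88) in the rest of chromosome 8 and 8.44 (8.34 to 8.55) in the rest of chromosomes 1 to 22 and X. The ratios were 1.26 (0.668 to 2.16) and 0.962 (0.512 to 1.65), and both intervals include 1. In bases covered by peaks the direction on chromosome 8 turned: peaks covered 0.338% of the window, against 0.457% of the rest of chromosome 8 and 0.584% of the rest of chromosomes 1 to 22 and X, ratios of 0.740 and 0.579. These intervals cover counting error over peaks, which are not replicates. They take peaks to fall independently and at an even rate, but the listed peaks were clumped. Counts per 1.6 Mb of chromosome 8 had a median of 5.5, an interquartile range of 2 to 16 and a maximum of 64. The density and ratio intervals given here are therefore likely too narrow, and wider ones would still include 1. Copy number and rearrangement of the region in these cells were not examined here, and their part in any height or density was not tested.

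Cut into windows of 1.6 Mb, chromosome 8 gave 92 windows, of which 14 were empty, with a median of 5.5 peaks (interquartile range 2 to 16). The MYC and PVT1 window had 13, more than 66 of the others and fewer than 24. Its tallest peak, at 56, was low for its number of peaks. The tallest peak was higher in 57 of the other 77 windows with peaks on chromosome 8. In the 5 other chromosome 8 windows with 11 to 15 peaks, the tallest peak had a median height of 81 (range 55 to 89). In 1 of the 5 it was lower: the window directly before this one, with 12 peaks and a tallest of 55. Over chromosomes 1 to 22 and X, 193 other windows had 11 to 15 peaks, and 14 of them had a lower tallest peak.

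**Figure D3:**
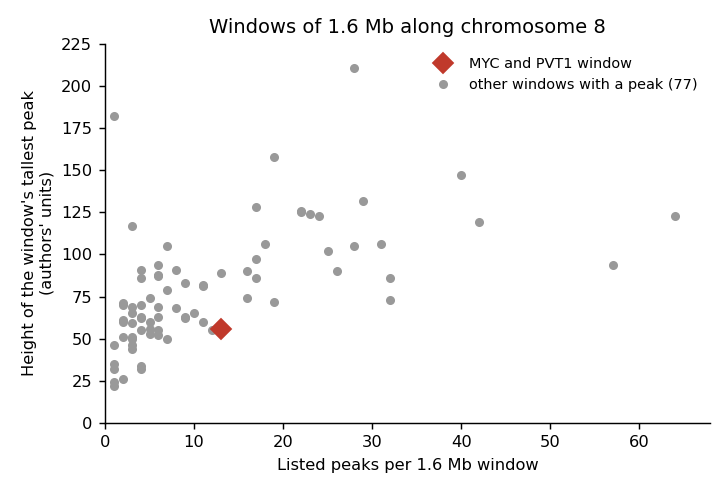
Height of the tallest listed KMT2D peak (authors' units) against the number of listed peaks for each 1.6 Mb window of chromosome 8 that holds a peak. The MYC and PVT1 window (diamond, 13 peaks, tallest 56) lies near the lower edge of the windows with a like number of peaks.

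The median peak of the window was lower and narrower than that of the list, within the counting error of 13 peaks. Its median height was 29 (order-statistic 95% interval 21 to 42), against 35 (34 to 38) in the rest of chromosome 8 and 39 (39 to 40) in the rest of chromosomes 1 to 22 and X. The interval of the window overlaps both others, so at 13 peaks a difference in median height was not detectable. A height above the list median of 39 was reached by 3 of 13 peaks (23.1%, exact binomial 95% interval 5.04 to 53.8%), against 44.7% in the rest of chromosome 8 and 49.7% over all. Median width was 296 bp (139 to 652 bp), against 606 bp (552 to 667 bp) and 609 bp (601 to 618 bp). A width of 200 bp or less was listed for 4 of 13 (30.8%; 9.09 to 61.4%), against 22.2% in the rest of chromosome 8 and 21.0% over all. All 4 of these peaks had heights of 20 to 22. Height and width rose together among the 13, with correlations of 0.90 (Spearman) and 0.87 (Pearson), as they did in the rest of chromosome 8, where Spearman's was 0.89. The 13 peaks share 1 library, and the correlation is a description only.

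**Figure D4:**
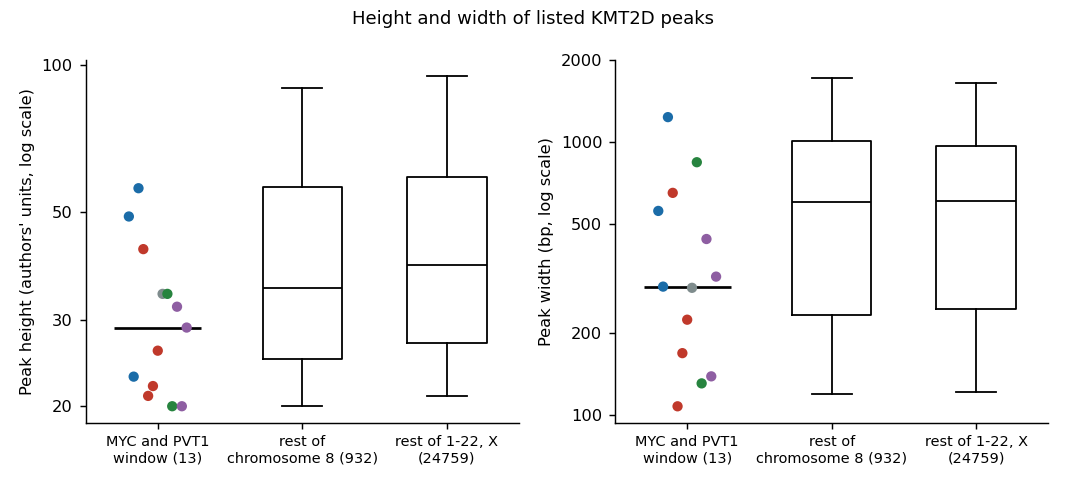
Height (left, authors' units) and width (right, bp) of listed KMT2D peaks on log axes: the 13 window peaks as points in the colours of their stretches (blue upstream, red MYC, grey between, green PVT1, purple downstream) with their median as a line, and the rest of chromosome 8 and of chromosomes 1 to 22 and X as boxes (median and quartiles, whiskers from the 5th to the 95th percentile). The medians of the window, 29 and 296 bp, lie below those of the rest of chromosome 8, 35 and 606 bp, and the 13 points lie within the whiskers of the rest of chromosome 8 apart from the narrowest peak, of 108 bp.

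Significance values ran from -45.5 to -16.3 with a median of -24.8, against -27.8 in the rest of chromosome 8 and -27.99 in the rest of chromosomes 1 to 22 and X. None of the 13 was listed at minus infinity, but only 30 of all 24824 peaks were, so this does not set the window apart. Values above -20, near the bound of -15, were found for 4 of 13 peaks (30.8%), against 24.7% in the rest of chromosome 8 and 25.1% over all. They were the middle upstream peak, the second MYC peak, the peak in the far part of PVT1 and the second downstream peak. The upstream pair and the MYC start peak had the strongest 3 values.

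Because height, score and significance rise together, each member was also set beside the chromosome 8 peaks within 2 height units of it. Score and significance gave different counts. The score lay above the median of those peaks for 10 of 13 members (76.9%; 46.2 to 94.96%), against 49.5% in the rest of chromosome 8 and 50.1% over all, and this interval includes both backgrounds. The significance value lay further below 0 than the median for 7 of 13 members (53.8%; 25.1 to 80.8%), against 50.8% both in the rest of chromosome 8 and over all, a share near the background. All 4 MYC peaks were among the 10 by score, but by significance only the first and the third passed their medians. The second MYC peak had -16.3, against a median of -18.1, and the fourth lay within 0.1 of its median. The MYC start peak had a score of 26.5, against a median of 25.5 over 46 chromosome 8 peaks of like height, and the first upstream peak had 33.4, against 28.7 over 53. Both PVT1 peaks and the second downstream peak lay under their medians. The PVT1 start peak had a score of 20.8, against 21.7 over 80 such peaks. The second PVT1 peak and the second downstream peak had scores of 16.2 and 15.6, against 16.5 over 154.

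The highest point lay before the midpoint, towards the lower coordinate, in 12 of 13 peaks (92.3%; 63.97 to 99.8%), against 56.7% in the rest of chromosome 8 and 56.2% over all. The exception was the second MYC peak, of 108 bp. Offsets from the midpoint were 6 to 99 bp, the longest being that of the MYC start peak. The fourth MYC peak, the PVT1 start peak and the last downstream peak were nearly centred, with offsets of 8, 6 and 7 bp. The share of 12 of 13 was the largest departure from its background among the 7 shares of members given here. These 7 leave out the run over MYC, whose limit was chosen on these peaks. No allowance was made for having looked at several.

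Stitching of peaks at most 12500 bp apart put 9 of 13 peaks (69.2%; 38.6 to 90.9%) into 3 clusters, against 63.6% in the rest of chromosome 8 and 63.4% over all. The share was thus near its background. The upstream cluster ran from 128571350 to 128591256 with peaks over 10.5% of its span, the MYC cluster from 128748191 to 128750827, and the PVT1 start cluster from 128800915 to 128807448 with peaks over 17.4%. At a stitching distance of 5 kb the MYC cluster alone was left, since gaps were 7.38 and 10.4 kb in the upstream cluster and 5.40 kb at the PVT1 start.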

How the data were processed

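The authors deposited 1 list of KMT2D peaks with 11 columns and no header, so column meanings were read from the values. The deposited height is a signal per peak in the authors' units. The deposited score and the deposited significance value, treated as a score too, are used only within this list. Relative positions of the highest point are percent values deposited by the authors. Positions are on hg19 and CASAVA 1.8.2 was used, per the submitters' processing notes. The sources used here do not give the aligner, the peak caller, its threshold or how the input was used. Whether positions count from 0 or 1 is not stated. Per the labels' protocols, chromatin was sheared to 200 to 400 bp. What part fragment length and the caller had in a peak's width was not tested.

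For all 24824 peaks, the width was exactly (tolerance 0 bp) the end minus the start, and the highest point lay inside the peak. Members were chosen by highest point. Densities are peaks per Mb between the first and the last listed peak of a chromosome, on chromosomes 1 to 22 and X. These lengths, and the gaps and empty windows, include any stretch where reads could not be mapped. Such stretches were not identified here, and their part in the background densities was not tested. Intervals are at 95%: exact Poisson, exact conditional for ratios, exact binomial for shares and order-statistic for medians. No read counts entered, as depth is not known. Every peak of the window is named by position. The window, genes, lists and measures were chosen with earlier results of these data known. Alternatives were score cuts, merging, borders, overlap, a common minimum height, covered bases and stitching distance. On simulated data, 200 of 200 planted clusters, and the true value in 488 of 500 median, 473 of 500 ratio and 486 of 500 Poisson intervals, were recovered. These simulations check the computation only. They cannot show that the intervals have 95% coverage for the listed peaks, which are clumped along the chromosomes. Software was Python 3.11.15, scipy 1.17.1, numpy 2.4.6, matplotlib 3.10.9 and pandas 2.3.3.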

Additional observations from a re-analysis of the deposited data

How the results depend on the processing

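Since no test could be run, an alternative value was called moved if it fell outside the 95% interval of the reported one or, for the number of peaks, differed over 1.5 times. Of 54 alternative values of 7 results, 40 stayed and 14 moved, and 2 could not be computed, because no downstream peak was left after the score cuts. Several of these intervals are wide, as with 0.0870 to 4.85 for upstream over downstream, so having stayed does not show a stable result. With covered bases, the upstream over downstream ratio went from 0.650 to 1.504 and the ratio to chromosome 8 from 1.26 to 0.740. With PVT1 widened, its ratio went from 0.763 to 1.16, and these values were all counted as stayed. Keeping the highest-scoring 50% of peaks left 3 peaks in the window, with a median height of 49, density ratios of 0.654 to the rest of chromosome 8 and 0.444 to the rest of chromosomes 1 to 22 and X, 0% of them in clusters and a PVT1 ratio of 0. Keeping the highest-scoring 25% left 1 peak, of height 49, with ratios of 0.445 and 0.296, 0% in clusters and a PVT1 ratio of 0. A common minimum height of 26 left 8 peaks, with density ratios of 1.08 to the rest of chromosome 8 and 0.741 to the rest of chromosomes 1 to 22 and X. These smaller counts and taller medians follow from the cuts. The lower density ratios to the rest of chromosome 8 and of chromosomes 1 to 22 and X need not, since those backgrounds were cut alike. Their intervals all include 1, as with 0.0915 to 1.30 for the ratio of 0.444. With 5 kb as stitching distance the clustered share was 30.8%. A shorter distance can only lower such a share, in the window as elsewhere. Shares of the other peaks at 5 kb or after the score cuts were not computed, so these shares have no background. Merging peaks under 500 bp apart gave 11 peaks in the window and 2 over MYC, with no run of 4. Borders moved by 100 kb, or any overlap as the rule, left the same 13 peaks. This was fixed by position. The window's ends are free of listed peaks for 571 and 274 kb inward, and for 429 and 1352 kb outward. These settings count among those that stayed, although they could not change the members. No paired analysis was possible because there is 1 ChIP library and no result comes from a test.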

Other observations

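The 1.6 Mb after the window held 4 peaks (exact Poisson 95% interval of the count 1.09 to 10.2), the nearest of them 1352 kb past the window's end, with heights of 25 to 62. The 1.6 Mb before it held 12 (6.201 to 20.96), so the intervals overlap, with heights of 21 to 55 and a median of 33.5, and 10 of them fell into 3 clusters. Its last peak, at 127570449 to 127570833 with a height of 29, was itself isolated, with 912 kb free of listed peaks before it and 1001 kb after it. The first peak after the window, at 130951510 to 130952628, was taller than any of the 13, with a height of 62 and a width of 1118 bp. These stretches were looked at after the values of the window were seen.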
